A study of Mus musculus with 6 samples.

Results

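The 10 genes studied here move anions, protons, short-chain fatty acids and water across colonocytes, the absorptive cells at the surface of the colon, and were followed in colonic mucosa of mice lacking Tlr2, a receptor for bacterial lipoproteins. They were Slc26a3, Slc9a3, Slc9a2, Car1, Car4, Aqp8, Atp12a, Slc5a8, Slc16a1 and Cftr. Members were chosen by function, and all 10 of them were found among the 17327 genes with a symbol on the expression arrays, through the transcript accession of each probe. They were measured by 13 probes, 3 for Slc16a1, 2 for Cftr and 1 for each other gene, and all 13 probes were well above background in both channels on every array. Car1 and Slc16a1 lie on chromosome 3, which also holds Tlr2, and the other 8 genes on other chromosomes.

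Tlr2 knockout mice were set against wild-type mice, both C57BL/6 and 90 days old after birth, and the mucosa of both was scraped off the colon and frozen. Each of 4 two-colour arrays held 1 knockout and 1 wild-type sample, and an array is named here by the number of its knockout sample as pair 1, 2, 4 or 5. The knockout carried the dye Cy3 in pairs 1 and 2 and Cy5 in pairs 4 and 5. The labels name a different code for every sample but do not say that each is a separate animal, so the p-values below measure the spread between these samples. A scrape holds several cell types, and in such bulk samples fewer cells of a type and less RNA per cell cannot be told apart.

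Surface colonocytes absorb salt by coupling an apical chloride-bicarbonate exchanger to an apical sodium-proton exchanger, with carbonic anhydrases supplying both ions that are exchanged, and water follows the salt. Short-chain fatty acids made by colonic bacteria enter the same cells through sodium-coupled and proton-coupled carriers. Crypt cells secrete chloride through an apical channel, and the balance between the processes sets the water content of stool.

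Between 67.7% and 71.9% of the 43379 spots were well above background in the knockout channel and between 63.3% and 76.5% in the wild-type channel. Tlr2 itself was at log2 ratios of -4.42, -5.31, -5.50 and -4.20 for pairs 1, 2, 4 and 5, where every ratio is knockout over wild type, so the genotype labels hold on each array. Over all genes, the log ratios of pair 1 correlated negatively with those of pairs 2, 4 and 5 (Pearson r of -0.21, -0.42 and -0.10), while the other 3 pairs correlated positively with one another (r of 0.55, 0.42 and 0.57). These correlations run across 14707 genes, which are not independent replicates. Spots at the scanner ceiling numbered between 43 and 304 in the knockout channel and between 79 and 429 in the wild-type channel. Loess scaling within each array, which removes a dye trend along brightness, moves the brightest spots most, so values under plain median centring are given beside those of the members whose direction it turns. It put the median of all genes at -0.63, -0.12, 0.38 and 0.00046 for pairs 1, 2, 4 and 5.

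Among the 8 transporters that were not saturated on every array, 6 were lower in the knockout of pair 1, 8 higher in pair 2, 8 in pair 4 and 6 in pair 5. Of all genes 52.8% were lower in pair 1, and 47.6%, 49.8% and 51.1% higher in pairs 2, 4 and 5. Under median centring 8 of the 8 were lower in pair 1, beside 76% of all genes, and the counts of the other pairs stayed at 8, 8 and 6, beside 35.6%, 72% and 50.1%. No gene passed limma's test on the 4 ratios with a dye term (0 of 10 members and 0% of the 14718 genes tested, with Benjamini-Hochberg adjustment and a threshold of 0.05). Tlr2 itself, at a mean log2 ratio of -4.86, had an adjusted p of 0.318 in this limma test. Not passing it therefore does not show that a gene was unchanged. Among members the adjusted p was smallest at 0.597 for Cftr and largest at 0.978 for Slc16a1. Without adjustment 1 member, Cftr, had a p under 0.05, against 1192 of all genes or 8.10%. The submitters' own rule asks for a difference past 1.6-fold on 2 or more arrays with none pointing the other way. By that rule 0 members were higher and 0 lower, compared with 0.761% of all genes higher and 0.713% lower. None of the members is listed in the authors' deposited tables of 328 increased and 277 decreased transcripts.

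**Figure D1:**
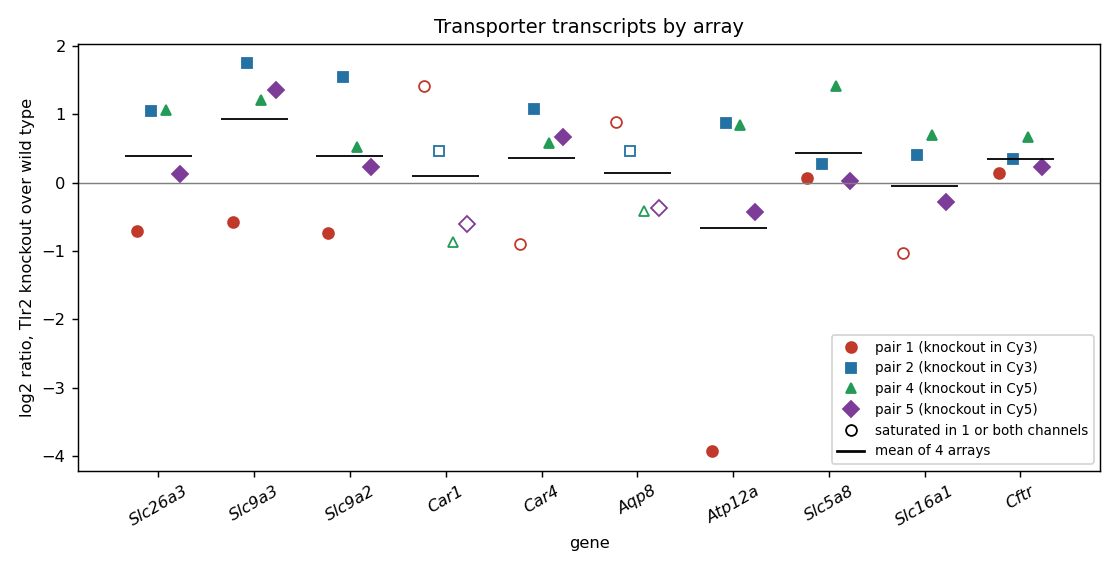
Log2 ratio of Tlr2 knockout over wild type for the 10 genes on each of the 4 arrays, on the probe used for the test, with the mean as a line. Open symbols mark spots saturated in at least 1 channel. Pair 1 lies below the other pairs for 7 genes and above them for the saturated Car1 and Aqp8, while for Slc5a8 pair 5 is lowest, and the pair 1 value of Atp12a is -3.93.

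Slc26a3, the apical exchanger that takes up chloride for bicarbonate, gave log2 signals of 13.36, 14.03, 15.02 and 14.57 in the knockout samples of pairs 1, 2, 4 and 5, against 14.07, 12.98, 13.95 and 14.44 in their wild-type partners. A log2 signal is a spot's brightness after loess and scaling of the arrays to a common brightness. The knockout was about 1 log2 unit higher in pairs 2 and 4 and close to its partner in pair 5, but lower in pair 1, and the 2 groups overlap. Its log2 ratios were -0.71, 1.05, 1.07 and 0.13, with a mean of 0.38 ± 0.851 (SD, n = 4), a 95% interval in limma from -0.61 to 1.37 and an adjusted p of 0.809. In limma with the dye term, the estimate turned to -0.06 without pair 2 and was 0.82 without pair 1. Such a fit weighs the 1 remaining array with the knockout in Cy3 as much as pairs 4 and 5 together. A change of sign without pair 2 therefore reflects the added weight of pair 1 as well as the loss of pair 2.

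Slc9a3, the sodium-proton exchanger NHE3 of the absorptive brush border, had the largest mean ratio of the 10 genes. Its log2 signals were 7.75, 9.34, 9.02 and 9.49 in the knockout samples of pairs 1, 2, 4 and 5, against 8.33, 7.59, 7.81 and 8.13 in wild type. Before correction its spots read 147, 630, 550 and 887 in the knockout samples and 444, 233, 143 and 181 in wild type. The median spot of a channel lay between 98.5 and 161, so several of these readings were low. In pairs 2, 4 and 5 the knockout samples lie above every wild-type sample, and the knockout of pair 1 lies inside the wild-type range. The mean log2 ratio of 0.93 ± 1.03 (SD, n = 4) had a 95% interval from -0.22 to 2.08 in limma and an adjusted p of 0.626. With Agilent's processed signals the mean was 1.37. Over pairs 2, 4 and 5 alone the ratios were 1.74, 1.21 and 1.36, and limma with the dye term then gave an estimate of 1.51 with an adjusted p of 0.112.

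Slc9a2, the related exchanger NHE2, was measured at 9.89, 10.84, 10.37 and 10.60 (log2 signal) in the knockout samples, against 10.62, 9.30, 9.84 and 10.36 in wild type. Pair 1 again ran opposite to the other 3, and the groups overlap over most of their range. The ratios of -0.73, 1.55, 0.52 and 0.23 averaged 0.39 ± 0.938 (SD, n = 4, limma adjusted p = 0.834), with a 95% interval from -0.74 to 1.53. This mean rested on pair 2, since without it the estimate was -0.18, and without pair 1 it was 0.96.

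Car4, a carbonic anhydrase anchored on the outer face of the apical membrane, had the same order of signs as the exchangers. Its log2 signals were 14.40, 14.92, 15.37 and 14.93 in the knockout samples, against 15.30, 13.85, 14.79 and 14.25 in wild type. The wild-type spot of pair 1 was saturated, so its level there is a lower bound and the ratio of -0.90 for that pair an upper one. Pairs 2, 4 and 5 gave ratios of 1.08, 0.58 and 0.67. Over all 4 pairs the ratio averaged 0.36 ± 0.868 (SD, n = 4, limma adjusted p = 0.824, 95% interval from -0.63 to 1.34). With the saturated spot left out, as without pair 1, the estimate was 0.85. Without pair 2 the limma fit, then weighted toward pair 1, gave -0.14.

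Slc26a3, Slc9a3, Slc9a2 and Car4 thus shared 1 order of signs, lower for pair 1 and higher for pairs 2, 4 and 5, an order singled out after the values were seen. It was found for 4 of 10 members and for 16.2% of all genes tested. Median centring in place of loess kept all 4 in that order, with pair 1 at -1.74, -1.14, -1.68 and -1.94, and added Slc5a8 and Cftr to it. The count was then 6 of 10 members, beside 16.8% of all genes, and with Agilent's processed signals 6 of 10, beside 24%. Leaving out pair 1 gave 2 members, Slc26a3 and Slc9a3, past the submitters' rule as higher, and 0 as lower, beside 2.72% of all genes higher under the same rule on those 3 arrays.

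Because these genes share an order of signs, the 250 bases before the transcript start are shown for the 3 of them that have an entry in the RefSeq promoter table (GRCm38.p6), all on the + strand at chr12:31437969-31438218, chr13:74121163-74121412 and chr11:84957504-84957753. Capitals mark TTTAT or its complement ATAAA, a short core that CDX and posterior HOX factors can read, and lower case the rest.
Slc26a3: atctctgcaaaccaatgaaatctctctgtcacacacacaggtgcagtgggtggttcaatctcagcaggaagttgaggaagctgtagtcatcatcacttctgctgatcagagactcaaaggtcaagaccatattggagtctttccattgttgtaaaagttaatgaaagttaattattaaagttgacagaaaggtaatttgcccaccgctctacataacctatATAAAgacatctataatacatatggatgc
Slc9a3: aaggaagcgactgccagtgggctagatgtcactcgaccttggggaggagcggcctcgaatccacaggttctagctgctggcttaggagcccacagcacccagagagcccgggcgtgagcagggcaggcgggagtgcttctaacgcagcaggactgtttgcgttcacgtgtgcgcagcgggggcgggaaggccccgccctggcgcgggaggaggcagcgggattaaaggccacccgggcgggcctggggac
Car4: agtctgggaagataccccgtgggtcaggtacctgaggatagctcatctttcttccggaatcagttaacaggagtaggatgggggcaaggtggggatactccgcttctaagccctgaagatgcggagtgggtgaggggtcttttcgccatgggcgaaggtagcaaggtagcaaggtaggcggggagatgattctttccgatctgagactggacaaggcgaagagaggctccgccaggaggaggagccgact
The Slc26a3 sequence held 1 match, inside the letters tatATAAAg, which starts 29 bases before the transcript start. The other 2 sequences held 0. Both strands were searched in the 7 members with an entry. The core was in 3 of 7, Slc26a3, Aqp8 and Slc5a8, beside 37.3% of 32851 promoters of the same length. The motif AGATAA, read by factors of the GATA family, and CAAAGTCCA, read by HNF4A, were in 0 of the 7, beside 9.99% and 0.384% of all promoters, so no motifs overlapped in a member. The bases before Slc26a3 were 38.8% G and C, against 67.6% for Slc9a3, 56.4% for Car4 and a median of 52.4% over all promoters. A match describes letters in these windows, does not tell which factor, if any, reads them, and shows no binding.

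Car1, a cytosolic carbonic anhydrase abundant in colonocytes, was at the scanner ceiling of 65507 in both channels on all 4 arrays. Its log2 ratios of 1.41, 0.47, -0.87 and -0.61 follow the dye of the knockout and equal those of other saturated genes. On the array of pair 1, 31 genes were saturated in both channels and their ratios ranged from 1.4136 to 1.4140, and in pair 4 54 such genes ranged from -0.8683 to -0.8651. No level and no fold change can therefore be given for Car1.

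Aqp8, a water channel of surface colonocytes, was nearly as bright. Its spot signal before correction was 45384, 65507, 65507 and 65507 in the knockout samples of pairs 1, 2, 4 and 5, against 65507, 65507, 47849 and 55554 in wild type, where 65507 is the ceiling. The knockout was saturated on 3 arrays and the wild type on 2, with at least 1 channel saturated on every array. The channel that stayed below the ceiling was the Cy3 channel each time. The median spot of the knockout and wild-type channels was 105 against 161 in pair 1, 132.5 against 98.5 in pair 4 and 136 against 103 in pair 5, so Cy5 was the brighter dye on these arrays. Loess gave ratios of 0.89, 0.47, -0.42 and -0.37 and median centring -0.14, 0.12, 0.21 and -0.37, so neither size nor direction was measured for Aqp8.

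Atp12a, the colonic proton-potassium pump, held the largest difference on a single array. Its log2 signals were 9.27, 12.63, 14.34 and 11.89 in the knockout samples of pairs 1, 2, 4 and 5, against 13.20, 11.76, 13.50 and 12.33 in wild type. The knockout of pair 1 lies far below all 7 other samples, which overlap, and its spot signal was 374 against 14923 in its partner. The ratios were -3.93, 0.87, 0.84 and -0.43, with a mean of -0.66 ± 2.26 (SD, n = 4), a 95% interval from -3.08 to 1.75 and a limma adjusted p of 0.878. Without pair 1 the estimate was 0.54, so the negative mean came from 1 array.

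Slc5a8, the sodium-coupled carrier of butyrate and other monocarboxylates, varied least between the knockout samples after Cftr. It was at 13.002, 13.009, 13.54 and 13.14 (log2 signal) in the knockout samples, against 12.94, 12.74, 12.14 and 13.12 in wild type. Only pair 4 showed a difference over 1.6-fold, at a ratio of 1.41, beside 0.06, 0.27 and 0.02 in the knockouts of pairs 1, 2 and 5. It averaged 0.44 ± 0.655 (SD, n = 4, limma adjusted p = 0.691, 95% interval from -0.28 to 1.16), and without pair 4 it was 0.09.

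Slc16a1, the proton-coupled monocarboxylate carrier MCT1, was read by 3 probes to NM_009196 that differed in size. The dimmest, A_52_P245119, was never saturated and gave 8.64, 10.89, 11.37 and 10.54 (log2 signal) in the knockout samples, against 11.43, 9.73, 10.30 and 10.33 in wild type. On this probe the knockout of pair 1 was the lowest of all 8 samples and its partner the highest. The ratios were -2.79, 1.16, 1.07 and 0.21 on this probe. They were -1.16, 0.39, 0.67 and -0.27 on A_51_P397363 and -1.04, 0.40, 0.70 and -0.28 on the brightest probe A_51_P397367, whose wild-type spot was saturated in pair 1. All 3 probes placed pair 1 lower and pairs 2 and 4 higher, and they differed in sign for pair 5. The tested probe, the brightest, averaged -0.05 ± 0.771 (SD, n = 4, limma adjusted p = 0.978, 95% interval from -0.93 to 0.82). Its estimate was 0.30 without pair 1, as with saturated spots left out, and 0.19 without pair 5.

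**Figure D2:**
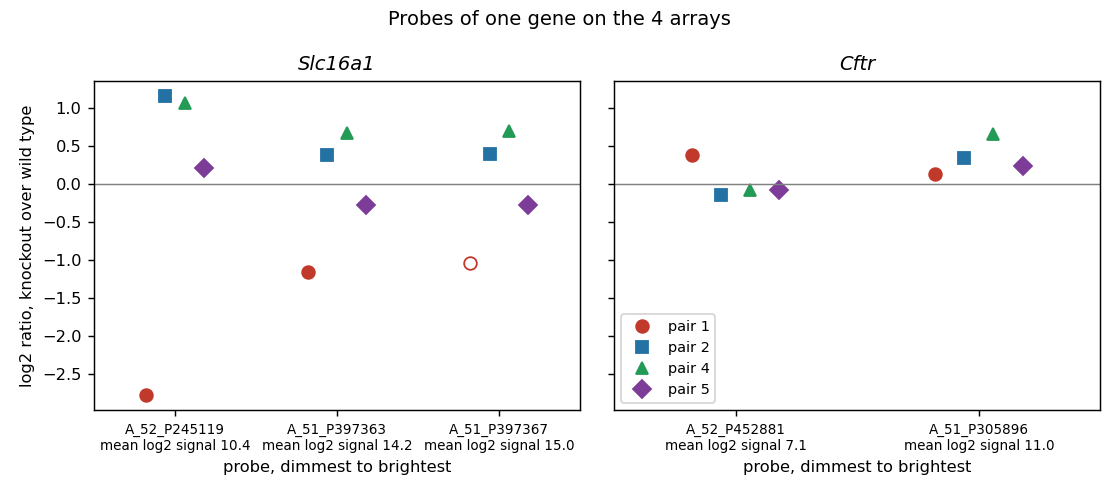
Log2 ratio of knockout over wild type for each probe of Slc16a1 (left) and Cftr (right) on the 4 arrays, ordered by mean log2 signal, with an open symbol for a saturated spot. The dimmest Slc16a1 probe spreads from -2.79 to 1.16 and the brighter 2 over a narrower range, and the Cftr probes differ in sign for pairs 2, 4 and 5.

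Cftr, the chloride channel through which crypt cells secrete, was the steadiest of the 10. On the probe A_51_P305896, printed in 10 spots, it was at 10.80, 11.25, 11.23 and 11.25 (log2 signal) in the knockout samples, against 10.67, 10.91, 10.57 and 11.01 in wild type. The knockout was the higher sample on each array by 0.13, 0.35, 0.66 and 0.23, while the groups as a whole overlap. The spots of 1 array differed by little, with an SD between 0.034 and 0.056, so spot error was smaller than the spread between the arrays. The mean of 0.34 ± 0.229 (SD, n = 4) had a 95% interval from 0.02 to 0.67 in limma, an unadjusted p of 0.0425 and an adjusted p of 0.597. The second probe for the same transcript, A_52_P452881, gave 0.39, -0.15, -0.08 and -0.08, at a spot signal between 95 and 166 in both genotypes.

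Cftr and Slc5a8 were the 2 of 10 members higher on all 4 arrays, beside 7.17% of all genes, and 0 were lower on all 4, beside 8.41%. For pair 1 both depended on the scaling. Median centring, with all genes at a median of -0.63 for that pair, put it at -0.84 for Cftr and -0.97 for Slc5a8, and Agilent's processed signals at -0.19 and -0.29, so that 0 members were higher on all arrays under either.

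The knockout sample of pair 1 had the lowest level among the 4 knockout samples for 8 of the 8 members that were not saturated on every array, beside 36.1% of all genes. That comparison was also chosen after the values were seen. It included Slc5a8, where the distance to the next sample was small. Across these 8 members the median log2 ratio was -0.72, 0.96, 0.77 and 0.18 for pairs 1, 2, 4 and 5, while the median of all genes lay between -0.03 and 0.005 on every array. The median of the mean ratios of these 8 was 0.37, against -0.01 for all genes. It changed with the arrays used, at 0.68 without pair 1 and -0.10 without pair 2, where the limma fit gives pair 1 more weight. Median centring gave 0.24.

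**Figure D3:**
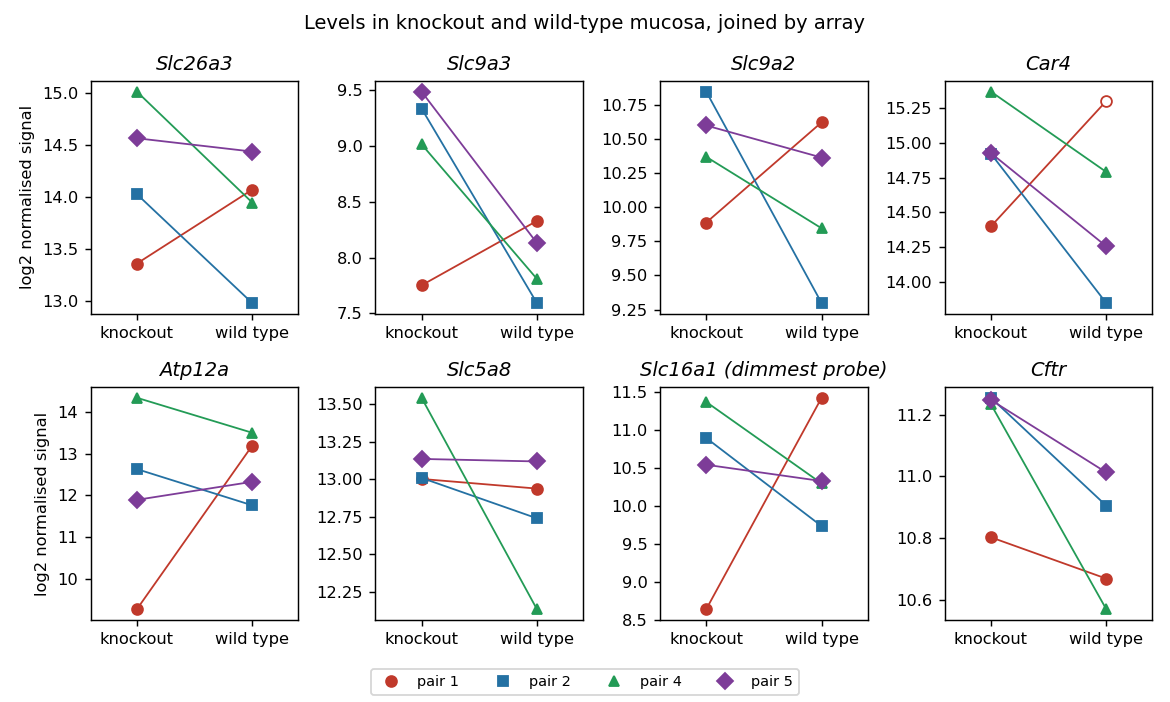
Log2 normalised signal in the knockout (left of each panel) and wild-type sample (right) of the same array, joined by a line, for the 8 genes not saturated on every array, with an open symbol for a saturated spot and Slc16a1 on its dimmest probe. The line of pair 1 climbs toward wild type for 6 genes, most steeply for Atp12a and Slc16a1, and every panel shows the knockout of pair 1 as the lowest knockout sample.

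The genes whose 4 ratios lay closest to those of a member were found by the root mean square difference over the 4 arrays, for the 3 members of widest ratios. Closest to Slc9a3 were Iqgap2, a scaffold protein, at a difference of 0.28, Jag1, a Notch ligand, at 0.29, and Slc9a3r1, the NHERF1 scaffold that binds NHE3, at 0.30. Slc9a3r1 had log2 ratios of -0.61, 1.36, 0.89 and 1.02 for pairs 1, 2, 4 and 5 (limma adjusted p = 0.664). Slc9a2 was matched most closely by Abcb1b, a drug exporter, at 0.115, by Zbtb7b at 0.193 and by Ptprh at 0.20. For Atp12a the nearest genes were farther off, with B3gnt7, a glycosyltransferase, at 0.79, Tgm3, a transglutaminase, at 0.80 and Hoxd10 at 0.82.

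Other genes of ion and water transport were read from 8 lists, in which 87 of 104 genes were measured. By limma 0 passed, and by the submitters' rule 0 were higher and 0 lower. Of the 87 genes 2 (2.30%) were higher on all arrays and 4 (4.60%) lower, beside 7.17% and 8.41% of all genes. The sign order of Slc26a3, lower for pair 1 and higher for the other 3 pairs, was that of 23 (26.4%), beside 16.2% of all genes. The median of their mean log2 ratios was 0.02.

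Among 9 further genes of anion exchange and bicarbonate transport the median ratio lay between -0.31 and 0.04 on the 4 arrays. Slc4a7, a sodium-bicarbonate cotransporter, ran against the members, with ratios of 0.77, -1.54, -2.55 and -2.40 and a mean of -1.43 ± 1.53 (SD, n = 4, limma adjusted p = 0.595), and its wild-type spot was saturated on 2 arrays. Median centring turned its pair 1 to -0.26. Slc26a1, a sulfate and oxalate exchanger, was at -0.31 ± 0.13 (SD, n = 4, limma adjusted p = 0.595) and lower on all arrays. The 5 other sodium-proton exchangers had a median of means of 0.06, with Slc9a9 at 0.10 ± 0.15 (mean log2 ratio, SD, n = 4). The 12 other carbonic anhydrases had a median of -0.02. Car3, abundant in fat cells, was at -0.01, 0.12, 1.26 and 2.98 for pairs 1, 2, 4 and 5, and Car9, induced by low oxygen, averaged -0.27 ± 0.277 (SD, n = 4).

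The 7 other aquaporins had a median of -0.01, with Aqp11, an intracellular channel, at -0.39 ± 0.571 and Aqp4 at 0.62 ± 0.825 (mean log2 ratio, SD, n = 4). Among 9 pump genes the median was -0.01. Fxyd4, a small subunit that modulates the sodium pump, was at -5.51, -1.07, 0.20 and -1.24 for pairs 1, 2, 4 and 5, so pair 1 was again the lowest, and its mean of -1.90 ± 2.49 (SD, n = 4) had a limma adjusted p of 0.625. The 12 other monocarboxylate genes had a median of 0.01, with Slc16a5 at 0.52 ± 0.454, higher on all arrays but at -0.87 for pair 1 under median centring, and Slc16a6 at -0.44 ± 0.452 (SD, n = 4).

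The 15 genes of chloride secretion and potassium channels had a median of means of 0.14, with Clcn2, a chloride channel, at 0.42 ± 0.435 (mean log2 ratio, SD, n = 4). The 18 regulators of ion transport had medians of -0.32, 0.39, 0.05 and 0.16 for pairs 1, 2, 4 and 5, in the same order of signs as the median of the members. Besides Slc9a3r1, the rule for named genes gave Guca2b, the peptide uroguanylin that activates guanylate cyclase C, at 1.30, -0.43, -1.96 and -1.49.

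Markers of surface and other cell types were set beside the transporters. Of 14 absorptive colonocyte markers 7 had a saturated spot on any array, as did 5 of 5 general epithelial and 5 of 6 goblet cell markers. The mean log2 signal of the epithelial list lay between 15.58 and 15.89 in the knockout samples. In wild type it lay between 15.36 and 15.90. The epithelial genes were thus bright in every sample, which fits the tissue label. With saturated spots in all 5, these levels cannot compare the samples with one another. The medians of the absorptive list were 0.42, 0.47, -0.71 and -0.48 for pairs 1, 2, 4 and 5 and those of the epithelial list 0.58, 0.41, -0.50 and -0.61. Under loess these signs follow the dye, as for Car1. Under median centring the medians were -0.61, 0.12, -0.07 and -0.47 for the absorptive list and -0.45, 0.09, 0.14 and -0.61 for the epithelial list, so no direction is drawn from them. Over the 7 absorptive markers that were never saturated the medians were 0.10, 0.55, -0.80 and -0.14. The 9 markers of proliferating and stem cells had medians between -0.09 and 0.09, and between -0.75 and 0.63 under median centring.

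Smooth muscle markers (6 of 6 measured) had medians of -1.03, -0.12, -0.39 and 0.32, and their mean log2 signal lay between 9.58 and 10.10 in the knockout samples and between 9.56 and 10.84 in wild type. Adipocyte markers (5 of 6, without Lep) had medians of -0.34, -0.04, 0.88 and 2.66, with a mean log2 signal from 8.23 to 12.23 in the knockout samples and from 8.31 to 9.92 in wild type. The 5 leukocyte markers had medians between -0.31 and 0.04, and 6 small intestinal enterocyte markers between -0.41 and 0.10. The part of these cell types in the transporter ratios was not tested.

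Hox genes, whose paralog groups mark position along the gut, shared their order of signs in part. The 8 measured genes of groups 10 to 13, used posteriorly, had medians of -1.48, 0.50, 1.21 and 0.50 for pairs 1, 2, 4 and 5, with the same signs under median centring. Their mean log2 signal was 7.88, 9.62, 9.97 and 9.11 in the knockout samples, against 9.89, 9.10, 8.83 and 8.68 in wild type, so the knockout of pair 1 was the lowest of the 8 samples and its partner the second highest. The 21 genes of groups 1 to 9 had medians of 0.71, -0.21, -0.33 and 0.08. Whether the scrapes came from different stretches of the colon, and what part that had in the transporter ratios, was not tested.

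**Figure D4:**
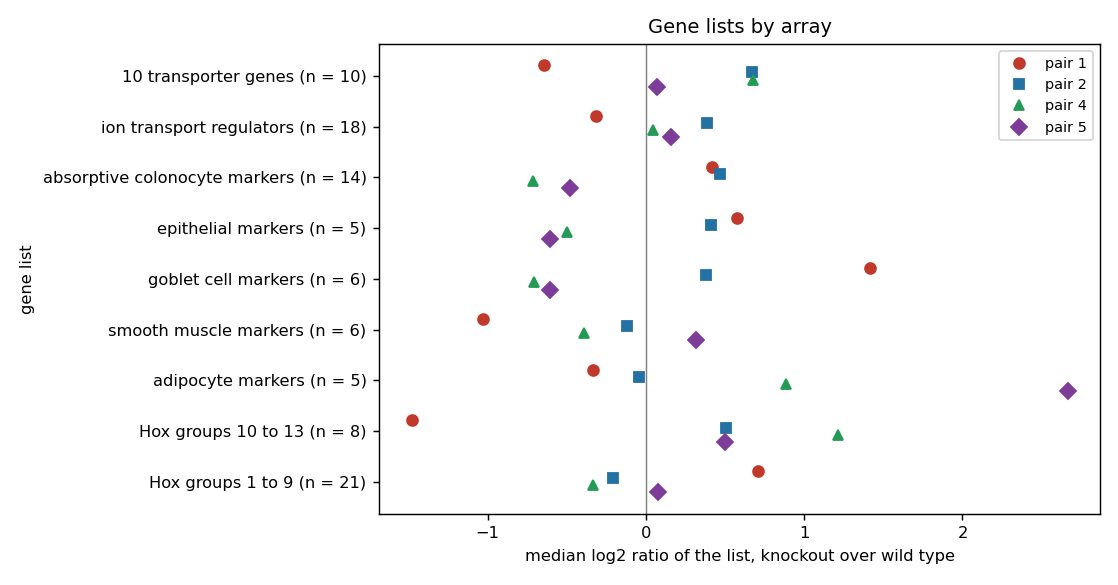
Median log2 ratio of knockout over wild type for the 10 transporters and for lists of regulators, cell type markers and Hox genes, 1 point per array. Pair 1 is the lowest of the 4 for the transporters, the regulators, smooth muscle, adipocyte markers and Hox groups 10 to 13. Under loess, absorptive, epithelial and goblet markers divide by the dye of the knockout into pairs 1 and 2 and pairs 4 and 5. Under median centring only the goblet markers still do, at 0.39, 0.03, -0.04 and -0.61 for pairs 1, 2, 4 and 5.

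By dye orientation, the mean log2 ratio with the knockout in Cy5 (pairs 4 and 5) and in Cy3 (pairs 1 and 2) was 1.28 and 0.58 for Slc9a3, 0.60 and 0.17 for Slc26a3, 0.63 and 0.09 for Car4, and 0.38 and 0.41 for Slc9a2. For Cftr the values were 0.45 and 0.24 and for Slc5a8 0.71 and 0.17. Under median centring the Cy3 value alone turned negative for 5 of these genes, to -0.48 for Slc26a3, -0.58 for Car4, -0.13 for Slc9a2, -0.33 for Cftr and -0.47 for Slc5a8. Slc9a3 kept 1.53 and 0.24. Atp12a was at 0.20 and -1.53 and Slc16a1 at 0.21 and -0.32, with the negative values resting on pair 1. Per the file headers all 4 arrays lay on 1 slide and share 1 scan, so no slide could be compared with another.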

How the data were processed

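The authors deposited scanner files with the spot intensity of each channel (median pixel signal, local background and a processed signal), made with Agilent Feature Extraction 10.5.1.1 as their headers state (the submitters' processing notes name 8.5.1.1). The authors' deposited hit tables hold a ratio on a linear scale, knockout against wild type, and the sources used here do not give its normalisation. In R 4.3.3 with limma 3.58.1, background was corrected with normexp (offset 50), each array was scaled by loess with control spots at weight 0, outlier spots were left out and saturated spots kept. Of 41174 probes, 25125 were named, 25097 by accession through a table of assembly GRCm38.p6, 11 by gene name and 17 from the authors' deposited tables. A probe was kept if either genotype was well above background on 2 or more arrays, and the brightest stood for its gene. Levels per channel followed loess and Aquantile scaling. Ratios were fitted with lmFit and eBayes with a dye term and adjusted by Benjamini-Hochberg over 14718 genes. The fit was tested on simulated data. Only 4 arrays limit the precision. The alternatives, whose effect is given at the end, were the dye term, background, scaling, filter, choice of probe, saturated spots and each array left out.

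Genes were named by rule: the members, in each related list those past the submitters' rule and the 2 of smallest p, and the 3 genes nearest to each of the 3 members with the widest ratios, of at least 0.7 (root mean square), without genes saturated on every array or lacking a proper symbol, a condition added later. Members, lists and tests were chosen with earlier results of these data known. The methylation arrays were not used here. A few genes picked by the naming rule were left out of the text.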

Additional observations from a re-analysis of the deposited data

Results flagged for a closer look

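The knockout level of Cftr on probe A_51_P305896 was flagged because 1 of the 4 samples stands apart, with a gap of 0.954 of the whole range. The knockout of pair 1 was at 10.80 and the other 3 between 11.23 and 11.25 (log2 signal). On the second Cftr probe, A_52_P452881, the ratio of pair 1 stands apart, at 0.39 against values from -0.15 to -0.08, a gap of 0.878 of the range. Chance alone flags a few such groups, about 5% of them.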

How the results depend on the processing

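The 10 member ratios were recomputed under 13 alternatives, 9 of them keeping all arrays, and for the 8 not saturated on every array 96 of 103 values kept their direction. No member passed limma under any alternative, with adjusted p from 0.112 to 1.00. The direction of Slc16a1 turned with saturated spots left out (log2 ratio of 0.30). With 1 array left out, the dye term weighs the 1 array left in its dye orientation as much as both arrays of the other. Values then ran from -0.057 (without pair 2) to 0.82 (without pair 1) for Slc26a3. Likewise without pairs 2 and 1, they ran from -0.18 to 0.96 for Slc9a2 and from -0.14 to 0.85 for Car4. They ran from -1.86 (without pair 2) to 0.54 (without pair 1) for Atp12a, and from -0.41 (without pair 2) to 0.30 (without pair 1) for Slc16a1, which was also positive without pair 5 (0.19). Slc9a3, Slc5a8 and Cftr kept their direction whichever array was left out. The saturated Car1 and Aqp8 carry no direction, and their computed values only follow the scaling, at -0.086 and -0.046 with median centring and, for Car1, from -0.13 to 0.34 with an array left out. The cause was not tested. Counts of members higher on every array were 0 with processed signals and 0 with median centring, and from 2 to 6 with an array left out. By the submitters' rule members higher ranged from 0 to 2 with an array left out. For all genes limma called 3 without the dye term, 4 with processed signals, and 1 each without background correction, with median centring and with the strict filter. By the submitters' rule 291 genes were higher and 269 lower with processed signals, 45 and 293 with median centring, and from 93 to 387 higher and 84 to 495 lower with an array left out, the highest of these counts each without pair 1. Car1 and Aqp8 gave no value with saturated spots left out, nor did they and Car4 with the brightest never-saturated probe, a choice added after the data were seen. Each ratio is a difference within 1 array, so the fit is itself paired. No paired analysis was possible because each replicate number has only 1 ratio, which leaves no replicate block to add.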
